A study of Mus musculus with 6 samples.

Results

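The genes described here are 10 markers used to recognise fibroblasts and the progenitors of fat cells: Pdgfra, Pdgfrb, Cd248, Thy1, Pi16, Ly6a, Dpp4, Fap, Dpt and Clec3b. They were chosen by name, with earlier results of these data known. Each was read from the highest-mean probe set that carries its symbol alone, out of 22180 genes measured. Of the 10 markers, 9 had such a probe set, 1 each, and Ly6a was not analysed here. RNA came from whole inguinal mammary glands, with their fat, ducts, fibroblasts, vessels and immune cells, of C57BL/6J mice aged 4 weeks. One group of 3 mice was Mt1-mmp(+/+), with intact copies of the gene now called Mmp14, which encodes a matrix metalloproteinase anchored in the cell membrane. The other group of 3 littermates was Dermo1Cre/Mt1-mmp(fl/fl), in which Cre made under the mesenchymal gene Dermo1, now Twist2, deletes floxed Mt1-mmp in stromal cells. All 6 mice share the C57BL/6J background and carry no further agent or treatment in the labels. Cre appears in the labels only together with the floxed gene, so the effect of Cre and that of Mmp14 loss cannot be told apart. Each mouse gave 1 array, and n = 3 per group applies throughout.

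Fibroblasts and fat progenitors of the mammary gland lie between ducts and adipocytes, lay down the collagen matrix and supply new fat cells. They are commonly sorted by the surface receptor Pdgfra, and single-cell surveys of fat divide them into an early interstitial population marked by Dpp4 and Pi16, a committed preadipocyte population marked by Icam1 and a population marked by F3, also called Cd142. Most of the 9 measured markers encode proteins held at the cell surface, whereas Dpt and Clec3b encode proteins secreted into the matrix and plasma. Several are known from other cells as well: Pdgfrb and Cd248 are also known from pericytes, the cells that wrap capillaries, Thy1 from T cells and Dpp4 from epithelium and T cells. These are examples only, and which cells of the whole gland gave the signal of each marker was not tested.

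Mmp14 was 10.88 ± 0.32 (SD) log2 units in wild type and 8.62 ± 0.11 in the stromal knockout, and all knockout arrays lay below all wild-type arrays. Array medians over all probe sets ran from 3.85 to 3.89 log2 units in wild type and from 3.77 to 3.78 in the knockout, without overlap. Wild type 1 had the highest skeletal muscle signal, with a mean over 8 muscle genes 1.74 log2 units above the wild-type mean, while its mean over the 9 markers lay 0.06 above. In whole tissue, fewer cells of a type and less RNA per cell cannot be told apart. The labels call the samples biological replicates.

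Of the 9 measured markers, 6 fell in the stromal knockout and 0 rose, by limma with Benjamini-Hochberg adjustment over all genes and a threshold of 0.05. Thy1, Fap, Cd248 and Pdgfra fell to between 32.1% and 49.0% of the wild-type level, and Dpp4 and Dpt to 70.5% and 70.6%. Pdgfrb, Pi16 and Clec3b read lower too, but did not pass. Across all genes, 7.2% fell and 5.05% rose by the same rule, 12.2% in all. A fall of at least 2-fold was seen in 4 of the 9 markers and in 3.07% of all genes. The median difference (knockout minus wild type) of the 9 markers was -0.50 log2 units, beside 0.03 for all genes. In 7 of the 9, every knockout array lay below every wild-type array, a pattern shown by 15.4% of all genes. All 9 markers were well above the 33rd percentile of gene levels (2.68 log2 units), with group means from 7.05 to 11.80.

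**Figure D1:**
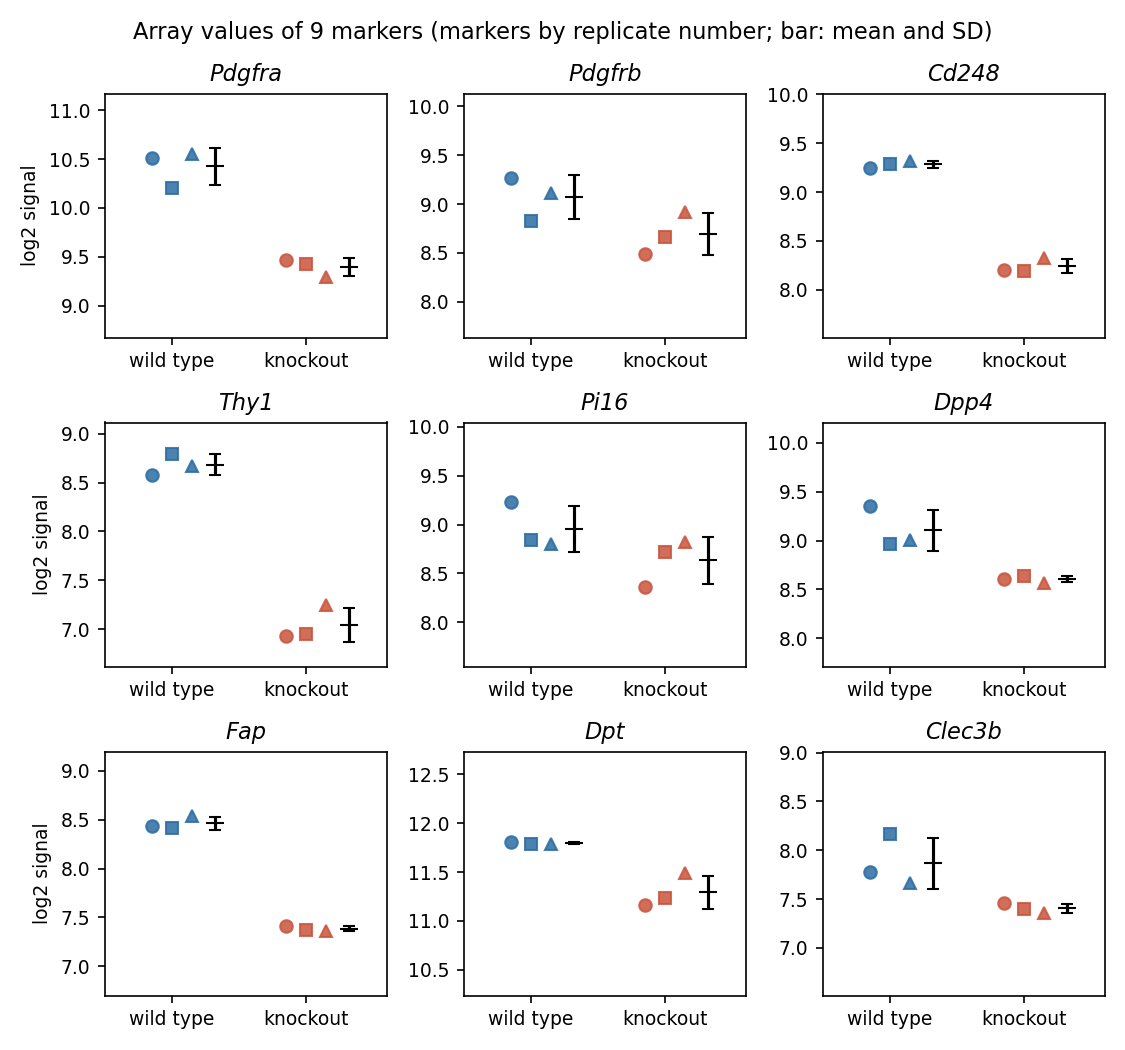
Log2 signal of the 9 measured markers on each array, in wild type (blue) and stromal knockout (red), with the circle, square and triangle for replicates 1, 2 and 3 and a black bar for the mean and SD of the group. Each panel spans the same height of log2 units, so that gaps can be compared between panels; the groups overlap for Pdgfrb and Pi16 and are separate for the other 7 markers.

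Of the platelet-derived growth factor receptors, Pdgfra fell and Pdgfrb did not pass. Pdgfra, the receptor tyrosine kinase that marks fibroblasts and fat progenitors, read 10.52, 10.21 and 10.55 log2 units on wild-type arrays 1 to 3 and 9.47, 9.42 and 9.29 on knockout arrays 1 to 3. The lowest wild-type array stood 0.74 log2 units above the highest knockout array. Pdgfra fell by 1.03 ± 0.13 log2 units (SE), a 2.04-fold change (limma adjusted p = 0.00353). Pdgfrb, the receptor for PDGF-B on pericytes and fibroblasts, read 9.27, 8.83 and 9.11 in wild type and 8.49, 8.67 and 8.92 in the knockout. The groups overlapped, because knockout 3 lay above wild type 2. Its difference of -0.38 ± 0.16 log2 units did not pass (limma adjusted p = 0.195), with a 95% interval from -0.76 to 0.01, so that a fall of more than 1.5-fold is within that interval. Within each array, the level of Pdgfra relative to Pdgfrb changed by -0.65 log2 units from wild type to knockout, and the groups did not overlap (exact two-sided permutation p = 0.1, the smallest that 3 against 3 arrays can give; adjusted p = 0.1 over 3 marker pairs, which were chosen after their values were seen), so this test could not pass the threshold.

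Cd248, also called endosialin, is a transmembrane glycoprotein with a lectin-like domain found on fibroblasts and pericytes. It read 9.25, 9.29 and 9.32 log2 units in wild type and 8.20, 8.20 and 8.32 in the knockout. Both groups were tight, with SDs of 0.04 and 0.07, and they were 0.92 log2 units apart at their nearest arrays. Cd248 fell by 1.05 ± 0.11 log2 units (limma adjusted p = 0.00134). Thy1, a small glycoprotein held by a lipid anchor, had the largest fall of the 9 markers. Its values were 8.58, 8.80 and 8.67 in wild type and 6.93, 6.95 and 7.25 in the knockout, a gap of 1.33 log2 units between the nearest arrays. The fall was 1.64 ± 0.13 log2 units, or 3.11-fold (limma adjusted p = 0.000583), and 0.978% of all genes had a lower difference. Pi16, a protein of the CAP superfamily whose expression marks fibroblast progenitors around vessels and in fat, read 9.23, 8.84 and 8.80 in wild type and 8.36, 8.72 and 8.82 in the knockout. Knockout 3 lay above wild type 3, so the groups overlapped. The difference of -0.32 ± 0.17 did not pass (limma adjusted p = 0.295; 95% interval -0.72 to 0.08). Within arrays, the level of Cd248 relative to Pi16, a pair chosen after its values were seen, changed by -0.72 log2 units without overlap. Its exact permutation p of 0.1 (adjusted p = 0.1 over the 3 pairs) is the smallest possible, so this test could not pass the threshold.

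Dpp4 and Fap encode related serine proteases of the cell surface that cut after proline, and Fap can also cut denatured collagen. Fap read 8.44, 8.41 and 8.54 log2 units in wild type and 7.41, 7.38 and 7.36 in the knockout. The 3 knockout arrays were nearly level, with an SD of 0.03, and 1.00 log2 unit below the lowest wild-type array. Fap fell by 1.08 ± 0.11 log2 units, or 2.11-fold (limma adjusted p = 0.00116). Dpp4 read 9.35, 8.97 and 9.01 in wild type and 8.61, 8.63 and 8.57 in the knockout, again without overlap but with a gap of 0.34. Dpp4 fell by 0.50 ± 0.14 log2 units (limma adjusted p = 0.0496), a call at the edge of the threshold that was lost in each of the 6 fits with an array left out (adjusted p from 0.0641 to 0.123), when arrays were centred on their medians (0.0737) and when every probe set was tested (0.0529). The difference of Dpp4 was -0.38 without wild type 1. Within arrays, the level of Fap relative to Dpp4, a pair chosen after its values were seen, changed by -0.58 log2 units without overlap. Its exact permutation p of 0.1 (adjusted p = 0.1 over the 3 pairs) is the smallest possible, so this test could not pass the threshold.

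In the RefSeq gene order of assembly GRCm38.p6, Dpp4 and Fap lie on the same chromosome with 1 protein-coding gene, the glucagon gene Gcg, between them. Gcg read 2.53 log2 units in wild type and 2.55 in the knockout, under the 33rd percentile of gene levels in both, where a change cannot be read. The next gene beyond Fap is Ifih1, a sensor of double-stranded RNA, which differed by -0.34 ± 0.14 log2 units and did not pass (limma adjusted p = 0.171). On the far side of Dpp4, the bicarbonate transporter Slc4a10 differed by 0.23 ± 0.17 (limma adjusted p = 0.439). It read 2.54 log2 units in wild type, under that percentile, and 2.76 in the knockout, just above it, so a change can hardly be read there either.

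The secreted markers, Dpt and Clec3b, had smaller differences than Thy1, Fap, Cd248 and Pdgfra as measured, without a test of that contrast. So did Dpp4, Pdgfrb and Pi16 (-0.50, -0.38 and -0.32 log2 units), so small differences were not particular to the secreted markers. Dpt, or dermatopontin, is a small matrix protein that binds decorin and collagen fibrils. It read 11.81, 11.79 and 11.79 log2 units in wild type, an SD of 0.01, and 11.16, 11.24 and 11.49 in the knockout. Dpt fell by 0.50 ± 0.12 log2 units (limma adjusted p = 0.0380), but this call was lost in 5 of the 6 fits with an array left out, all but the fit without knockout 3 (adjusted p from 0.0868 to 0.121) and when arrays were centred on their medians (0.0665). Clec3b, or tetranectin, is a plasminogen-binding protein. It read 7.77, 8.16 and 7.67 in wild type and 7.46, 7.40 and 7.36 in the knockout, and the groups did not overlap. Its difference of -0.46 ± 0.15 log2 units did not pass (limma adjusted p = 0.0917; 95% interval -0.81 to -0.11, which is not adjusted for the number of genes), and it passed with an intensity trend in the variance (0.0390).

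**Figure D2:**
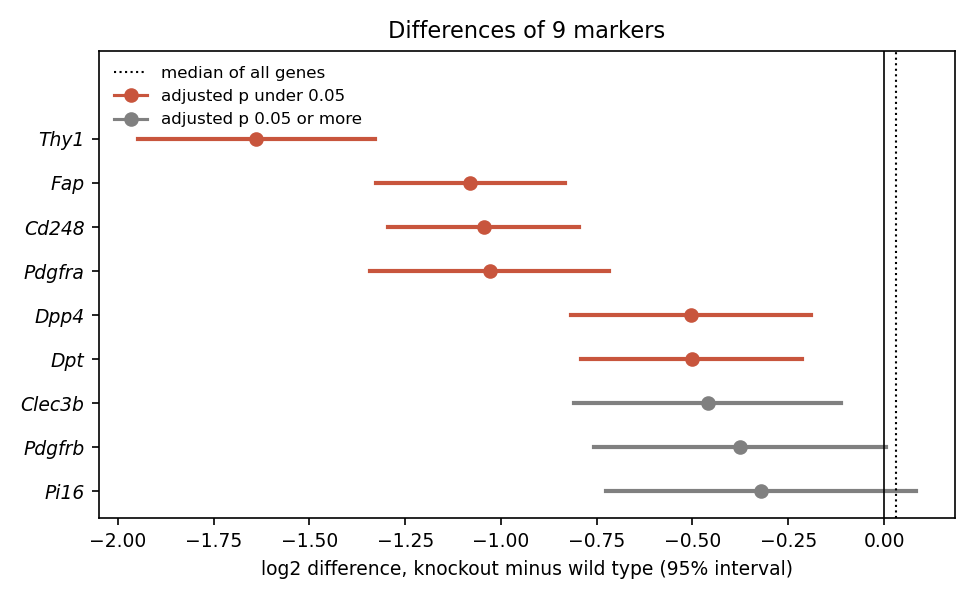
Difference in log2 signal, stromal knockout minus wild type, for the 9 measured markers, with the 95% interval of each from limma; red marks an adjusted p under 0.05 and the dotted line is the median of all genes. Thy1 stands apart at -1.64, Fap, Cd248 and Pdgfra lie together from -1.08 to -1.03, and the other 5 markers lie from -0.50 to -0.32.

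Leaving out 1 array at a time kept 4 markers past the threshold, 5 without knockout 3. Thy1, Fap, Cd248 and Pdgfra passed in all 6 of these fits, with adjusted p of at most 0.00483, 0.00819, 0.00917 and 0.0200 in that order. No array was the highest or the lowest of its group for all 9 markers. Wild type 1 was the highest of its group for 4 markers and the lowest for 2. Knockout 3 was the highest of its group for 5 markers and the lowest for the other 4, namely Pdgfra, Dpp4, Fap and Clec3b.

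**Figure D3:**
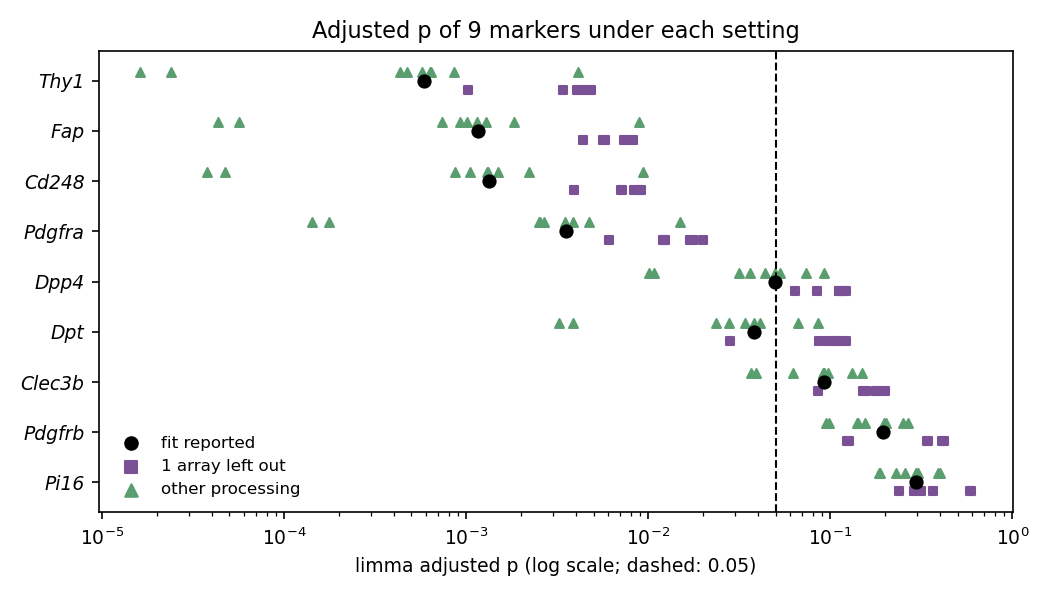
Adjusted p from limma (log axis) of the 9 measured markers in the reported fit (black circles), with 1 array left out (purple squares) and under other processing (green triangles); the dashed line is 0.05. Thy1, Fap, Cd248 and Pdgfra stay left of the line throughout, Dpp4, Dpt and Clec3b lie on both sides, and Pdgfrb and Pi16 stay to its right.

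The RefSeq table of promoters holds 4 of the 10 markers, on build GRCm38.p6. The 250 bases before each start are shown because they set a marker that fell 2.04-fold (Pdgfra) beside 2 that fell less (Dpp4, Dpt) and 1 that did not pass (Pi16). They span chr5:75152001-75152250 on the + strand for Pdgfra, chr1:164796413-164796662 on the + strand for Dpt, chr2:62412232-62412481 on the - strand for Dpp4 and chr17:29318632-29318881 on the + strand for Pi16. Each is written 5′ to 3′ along its gene, with motif matches in capitals.
Pdgfra: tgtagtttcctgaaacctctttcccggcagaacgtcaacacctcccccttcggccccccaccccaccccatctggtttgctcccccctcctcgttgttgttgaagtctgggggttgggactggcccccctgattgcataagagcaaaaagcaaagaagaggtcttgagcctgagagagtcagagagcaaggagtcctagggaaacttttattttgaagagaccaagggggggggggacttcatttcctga
Dpt: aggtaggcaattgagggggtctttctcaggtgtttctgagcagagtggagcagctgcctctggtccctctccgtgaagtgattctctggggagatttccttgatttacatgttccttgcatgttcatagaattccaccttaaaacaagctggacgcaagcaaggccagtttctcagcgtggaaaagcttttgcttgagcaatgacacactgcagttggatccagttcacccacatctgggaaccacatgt
Dpp4: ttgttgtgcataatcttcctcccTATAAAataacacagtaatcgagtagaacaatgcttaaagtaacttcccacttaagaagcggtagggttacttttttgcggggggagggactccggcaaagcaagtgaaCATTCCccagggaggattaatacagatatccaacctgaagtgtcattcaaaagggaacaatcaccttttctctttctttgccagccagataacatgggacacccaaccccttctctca
Pi16: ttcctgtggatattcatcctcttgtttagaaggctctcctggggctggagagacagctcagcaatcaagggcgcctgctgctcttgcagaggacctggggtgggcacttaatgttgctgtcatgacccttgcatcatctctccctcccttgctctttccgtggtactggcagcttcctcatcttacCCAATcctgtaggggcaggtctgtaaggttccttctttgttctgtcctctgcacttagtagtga
Motifs searched on both strands were the TATA box TATAAA, the CCAAT box CCAAT, the GC box GGGCGG, the AP-1 element TGANTCA and the TEAD element GGAATG. The Dpp4 window held TATAAA at 222 to 227 bases before the start and a reverse match of the TEAD element at 113 to 118 bases. The Pi16 window held CCAAT at 60 to 64 bases before the start, and the windows of Pdgfra and Dpt held none of the 5 motifs. Among 32851 RefSeq windows of the same length, 12.4% held TATAAA, 33.8% CCAAT, 32.7% GGGCGG, 6.75% TGANTCA and 12.6% GGAATG.

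The list of the interstitial progenitor population holds 19 genes and excludes the markers above. Of the 19, 11 fell, 0 rose and 8 did not pass, with a median difference of -0.65 log2 units. The 11 are 57.9% of the list, beside 7.2% of all genes that fell. Which cells of the gland gave the signal of the 19 genes was not tested. Bmp7, a bone morphogenetic protein, fell by 1.53 ± 0.22 log2 units, from 7.76 ± 0.30 (SD) to 6.23 ± 0.36 (limma adjusted p = 0.00492). Igfbp6, an inhibitor of IGF2, fell by 1.44 ± 0.17, from 9.63 ± 0.11 to 8.19 ± 0.31 (limma adjusted p = 0.00227). The transcription factor gene Creb5 and the annexin gene Anxa3 each fell by 1.04 log2 units, with adjusted p of 0.00159 and 0.00247. None of these 4 calls was lost under any alternative. Cd55, a complement regulator used to sort this population, and Wnt2 differed by -0.44 ± 0.13 and -0.65 ± 0.19 log2 units and did not pass (limma adjusted p = 0.0646 and 0.0695). With 1 array left out, 8 to 10 of the 19 fell.

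Of the 16 genes of the committed preadipocyte list, 1 fell and 2 rose, with a median difference of 0.13 log2 units. In each fit with an array left out, 1 rose. The 1 gene that fell is 6.25% of the list, whereas 7.2% of all genes fell and 5.05% rose. The list also holds Fabp4, Lpl and Cd36, with wild-type means of 12.73, 12.22 and 12.00 log2 units. The 8 genes of the adipocyte list, described below, had a median difference of 0.34. The part of fat cells in the signal of the committed preadipocyte list was not tested. The chemokine Cxcl14 fell by 1.83 ± 0.19 log2 units, or 3.56-fold (limma adjusted p = 0.0013). Zfp423, a transcription factor of preadipocytes, rose by 0.80 ± 0.14 (limma adjusted p = 0.0113), and the fatty acid receptor Cd36 rose by 0.43 ± 0.11 (limma adjusted p = 0.0450), a call lost in each of the 6 fits with an array left out (adjusted p up to 0.134). Icam1, the marker that names the population, was -0.44 log2 units from wild type (limma adjusted p = 0.111), and Pparg, the master regulator of fat cell formation, was 0.46 higher (limma adjusted p = 0.0557). Of the 6 genes of the Cd142 population, 1 fell and 0 rose: Gdf10, a TGF-beta family factor, fell by 1.13 ± 0.19 (limma adjusted p = 0.00884), while F3 itself differed by -0.37 ± 0.16 (limma adjusted p = 0.188). The 1 gene that fell is 16.7% of the Cd142 list, beside 7.2% of all genes. Whether the lists differ from each other was not tested.

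**Figure D4:**
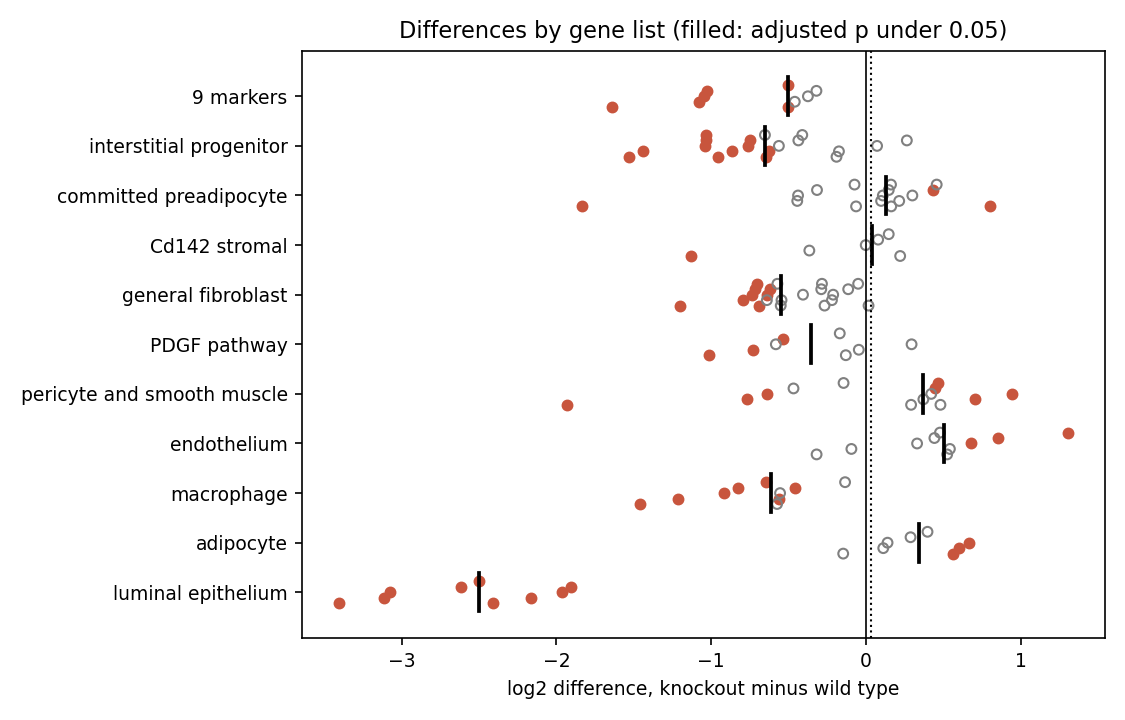
Difference in log2 signal, stromal knockout minus wild type, of each gene in the marker set and in 10 related or cell type lists; filled points have an adjusted p under 0.05, the short black line is the median of a list and the dotted line the median of all genes. The markers and the interstitial progenitor list have medians of -0.50 and -0.65, the committed preadipocyte list 0.13, the adipocyte list 0.34 and the luminal list -2.50.

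Fibroblast genes at large, a list of 22 of which 21 were measured, included 8 that fell and 0 that rose, with a median difference of -0.55 log2 units. The 8 are 38.1% of those measured, beside 7.2% of all genes that fell. The hyaluronan receptor Cd44 fell by 1.20 ± 0.18 log2 units (limma adjusted p = 0.00566), the proteoglycan lumican (Lum) by 0.80 ± 0.13, the transcription factor Twist1 by 0.74 ± 0.14 and the secreted glycoprotein Fstl1 by 0.72 ± 0.13. Twist1 lost its call without wild type 1 or knockout 2 (adjusted p at most 0.0567). The type I collagen gene Col1a1 differed by -0.27 ± 0.16 and did not pass (limma adjusted p = 0.344). Only Tcf21 of this list lay under the 33rd percentile of gene levels in both groups. The count was 4 without wild type 1 or knockout 2 and 14 with an intensity trend.

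PDGF ligands act on the receptors Pdgfra and Pdgfrb, and the plasminogen activators Plat and Plau cut the latent ligands PDGF-C and PDGF-D into active form. Of 8 genes of this pathway beside the receptors, 3 fell and 0 rose, with a median difference of -0.35 log2 units. The 3 are 37.5% of the list, beside 7.2% of all genes that fell. Plat fell by 1.01 ± 0.12 log2 units (limma adjusted p = 0.00208), Plau by 0.73 ± 0.13 (0.0111) and the receptor-like gene Pdgfrl by 0.54 ± 0.13 (0.0323). The call of Pdgfrl was lost in 5 of the 6 fits with an array left out, the fit without knockout 3 being the exception (adjusted p up to 0.0992), and also with arrays centred on their medians and with the replicate block. None of the 4 ligand genes passed. Pdgfc differed by -0.58 ± 0.16 (limma adjusted p = 0.0549), Pdgfa by -0.17 ± 0.12, Pdgfd by -0.05 ± 0.17 and Pdgfb by 0.29 ± 0.22.

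Relatives of the markers were mixed. Of 7 genes related to Dpp4 and Fap, 1 fell and 0 rose, or 14.3% that fell beside 7.2% of all genes. The gene that fell was that of the lysosomal enzyme Prcp (-0.55 ± 0.14 log2 units, limma adjusted p = 0.0447). Its call was lost in the same 5 fits as that of Pdgfrl (adjusted p up to 0.138). Centring arrays on their medians and the replicate block also removed it. Dpp8 and Dpp9 differed by 0.08 and -0.16. Dpp6 and Dpp10 had group means in the low 33% of genes in both groups, where a change could not be read. Of 16 measured Ly6 family genes, 2 fell and 0 rose, or 12.5% that fell beside 7.2% of all genes. Another 5 of the 16 (Ly6f, Ly6g, Ly6h, Psca and Slurp1) had group means in the low 33% of genes in both groups, where a change could not be read. The 2 that fell were Ly6d (-1.69 ± 0.16, limma adjusted p = 0.000975) and Lypd3 (-1.21 ± 0.20, limma adjusted p = 0.00859), both known from squamous epithelium. Ly6c1 and Ly6e, relatives of the unmeasured Ly6a, differed by 0.26 ± 0.17 and -0.40 ± 0.11 and did not pass (limma adjusted p = 0.377 and 0.0611). Genes of this family are alike in sequence, so their probe sets may share signal. Of 9 measured relatives of Pi16, Cd248 and Clec3b, 3 fell and 0 rose, or 33.3% that fell beside 7.2% of all genes. The 3 that fell were all of the CAP superfamily of Pi16. They were Crispld1 (-1.76 ± 0.20), Crispld2 (-1.14 ± 0.12) and Pi15 (-0.87 ± 0.17), with adjusted p of 0.00211, 0.00149 and 0.0162. Pi15 lost its call without wild type 3 or knockout 2 (adjusted p at most 0.0565).

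Pericytes and smooth muscle, which share Pdgfrb and Cd248 with fibroblasts, had changes in both directions. Of 13 genes, 4 rose and 3 fell (23.1%), beside 5.05% and 7.2% of all genes. Mcam, an adhesion molecule of pericytes, rose by 0.70 ± 0.12 log2 units (limma adjusted p = 0.00887), the filament gene Des by 0.95 ± 0.19 (0.0192), and the potassium channel subunits Kcnj8 and Abcc9 by 0.46 ± 0.11 and 0.44 ± 0.11 (0.0321 and 0.0433). The contractile genes Cnn1, Acta2 and Tagln, which myoepithelial cells also express, fell by 1.93 ± 0.24, 0.77 ± 0.13 and 0.64 ± 0.15 (limma adjusted p = 0.00299, 0.0102 and 0.0339). With 1 array left out, 2 genes rose in 5 of the fits and 1 without knockout 2, and Kcnj8 and Abcc9 lost their calls in each of them. Des lost its call without knockout 2 (adjusted p = 0.0683). Tagln lost its call in 5 of these 6 fits, all but that without knockout 3 (adjusted p up to 0.105), and with arrays centred on their medians, so that 2 genes fell in those fits. The summed signal of the 13 genes ran from 12.60 to 12.74 log2 units in wild type and from 12.33 to 12.61 in the knockout.

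Markers of several other cell types moved with the genotype, and their part in the differences of the markers and related lists was not tested. Across all genes, 7.2% fell and 5.05% rose. The 1 T cell gene that fell is 12.5% of its list, and the 1 B cell gene is 20%. All 9 measured luminal epithelial genes fell, with summed signals of 11.21 to 11.44 log2 units in wild type and 8.67 to 9.05 in the knockout, as did 5 of 7 basal genes (8.33 to 8.95 and 6.71 to 7.13). Of 10 macrophage genes 7 fell (12.31 to 12.62 and 11.76 to 11.91), and 2 to 4 fell when replicate 1 of either group, knockout 2 or wild type 3 was left out. Of 8 adipocyte genes 3 rose (14.19 to 14.23 and 14.44 to 14.54), with 0 to 2 rises with 1 array left out. Of 10 endothelial genes 3 rose (11.87 to 11.88 and 12.07 to 12.52), with 5 rises when knockout 1 was left out and 2 in the other fits of that kind. Of 8 measured T cell genes 1 fell, Cd2 (-0.48 ± 0.13, limma adjusted p = 0.0476), and summed signals overlapped, at 7.11 to 7.64 in wild type and 7.14 to 7.47 in the knockout. The Cd2 call was lost under 11 of 15 alternatives, including each fit with an array left out except that without wild type 1 (adjusted p up to 0.137). Cd3d lay under the 33rd percentile of gene levels in both groups. Of 5 B cell genes Cd79b fell (5.62 to 5.90 and 5.38 to 5.52), and Ms4a1 and Cr2 lay under that percentile in both groups. The Cd79b call was lost when wild type 1, wild type 3, knockout 1 or knockout 2 was left out (adjusted p up to 0.0676), and then 0 of the 5 fell. Of 3 measured Schwann cell genes Sox10 fell and S100b rose (7.20 to 7.67 and 7.13 to 7.26), the latter not without wild type 1 (adjusted p = 0.0638). Mbp differed by 0.22 ± 0.17 and did not pass (limma adjusted p = 0.487). Which cells gave the Sox10 and S100b signals was not tested. None of the 8 skeletal muscle genes passed, and their mean, rather than summed, signal ran from 3.13 to 6.12 log2 units in wild type and from 3.12 to 3.30 in the knockout.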

How the data were processed

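The deposited table holds log2 values from 6 arrays, made by the authors with RMA, which corrects background, equalises the distributions of the arrays and condenses probes to 1 value per probe set, from 400 ng of RNA, per the labels' protocols and the submitters' processing notes, which also name limma. Base 2 was inferred from RMA and the range of values. Which chip definition and probe filters were used is not given in the sources. Of 41345 probe sets, 23521 carry 1 symbol in the platform annotation, 1814 several, and 16010 are unnamed here. The highest-mean probe set per symbol gave 22180 genes. Groups were compared with limma 3.58.1 (lmFit, then eBayes without a trend; R 4.3.3), adjusted by Benjamini-Hochberg over all genes. Errors of differences are moderated SEs, and the number of arrays limits the precision. Intervals are 95% limma intervals. Summed signals are log2 of the sum of linear signals over a list, so bright genes weigh most. The fit was tested on simulated data.

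The members and lists were chosen with earlier results of these data known. The text names all 10 markers, Mmp14, genes beside Dpp4 and Fap, and up to 4 called genes per list. Others were named after their values were seen. They were Cd55, Wnt2, Icam1, Pparg, Col1a1, F3, Tcf21, the PDGF ligands, Dpp6, Dpp8, Dpp9, Dpp10, Ly6c1, Ly6e, plus low-signal markers and Ly6 genes. So were Fabp4, Lpl and Mbp. The fifth and later pericyte genes past the threshold were named to complete a count. Same-numbered arrays did not deviate together (correlations -0.03, -0.05 and -0.03 over genes), so numbers were not used as pairs. Promoter sequences are RefSeq's (GRCm38.p6).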

Additional observations from a re-analysis of the deposited data

How the results depend on the processing

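The 9 measured markers kept their direction under all alternatives. The count that fell ranged from 4 to 7, and the count that rose stayed at 0. Pdgfrb and Pi16 passed under none, and Clec3b passed with an intensity trend, with a robust trend and at an adjusted p under 0.1. With the replicate block, a fit that treats equal replicate numbers as pairs, 4 markers and 1923 of all genes were called, and Dpp4 (adjusted p = 0.0925) and Dpt (0.0859) lost their calls. The median difference of the markers was -0.42 log2 units with arrays centred on their medians, which moved the median of all genes to 0.12, and -0.60 to -0.51 with 1 array left out. In all, 2717 genes were called (1596 fell, 1121 rose), 4090 at an adjusted p under 0.1, 870 with at least 2-fold, and 1490 to 2304 with 1 array left out. Centring gave 1333 falls and 1768 rises. Leaving out the lowest 33 percent of genes, array weights, repeated quantile normalization and the mean of probe sets each left 6 markers called. The group means of the 9 markers, 7.05 log2 units or more, lie well above the lowest 33 percent of genes, so weak signal does not limit them, whereas Gcg and Tcf21 cannot be read.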
